A study of Mus musculus with 281 samples.

Results

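The 10 genes described here encode regulators of G-protein signaling (RGS), and their RNA was followed in single cells of the mouse stria vascularis. They are Rgs2, Rgs3, Rgs4, Rgs5, Rgs6, Rgs10, Rgs12, Rgs14, Rgs16 and Rgs17. The deposited gene table holds 47752 genes. The list was chosen by the ratio of Rgs5 between Slc26a4-/- and Slc26a4+/+ pendrin cells, the lowest of all genes, and that ratio is given here as a description only. The other 11 RGS genes of the table and 47 genes of G-protein signaling are given beside them.

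RGS proteins speed up the hydrolysis of GTP by the alpha subunits of heterotrimeric G proteins, and so shorten the signal that a G-protein coupled receptor sends into the cell. They fall into families by sequence. The R4 family holds small proteins that act on Gi and Gq subunits, the R7 family binds the atypical beta subunit Gnb5, the R12 family includes large scaffold proteins, and the RZ family prefers Gz and Gi subunits. Outside the ear, Rgs5 is best known as a gene of pericytes, the contractile cells on the wall of small vessels. The stria vascularis is the vascularised epithelium of the cochlear lateral wall that keeps up the endocochlear potential. Its marginal cells (MC) face the endolymph and its intermediate cells (IMC) are melanocyte-derived. Spindle cells (SC) at its edges and root cells (RC) beside it make pendrin, the anion exchanger encoded by Slc26a4 that secretes bicarbonate into the endolymph.

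The study compared Slc26a4+/+ (WT) cells with 40 Slc26a4+/- (HET) and 69 Slc26a4-/- (KO) cells of male mice on the 129S6 background. WT mice were 22 to 42 postnatal days old, HET mice 26 to 33 and KO mice 24 to 44. Cells were aspirated singly into a glass micropipette and each was made into a Smart-Seq2 library. The question was which genes differ in strial cells that lack pendrin. The sources used here do not describe the allele, and no other agent or allele is named for any group. The cells of each genotype came from several mice, and the labels do not tie a cell to its mouse, so values could not be averaged by mouse. Each genotype was therefore treated as 1 sample, no p-value was computed, and the spread is given over cells, over 37 sessions (cells that share a day code, age and genotype) and over 4 run dates. The day codes and dates are those carried in the names of the deposited per-cell tables, and they are read here as picking days and sequencing runs. All HET cells were in run date 4.

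Levels are in CPM, a gene's estimated counts scaled to the same total in every cell, and were averaged over cells. Ratios are on the log2(mean CPM + 1) scale, which understates differences of low genes, and a gene was called when its log2 ratio passed 1 in either direction (2-fold) and its mean reached 10 CPM in either genotype. Cells were clustered without the RGS and G-protein genes, and a cluster took the name "X-like" only if 1 marker list gave the top score in 80% or more of its cells. The named clusters held 110 IMC-like cells, 35 RC-like cells, 34 SC-like cells and 21 MC-like cells. Another 64 cells led by Slc4a1 and other blood-cell genes and 17 cells led by Crhbp stayed unnamed. Of the 64 cells 54.7% scored highest for the IMC markers, and of the 17 cells 52.9% for the RC markers. SC-like and RC-like cells together are called pendrin cells below, with 39 WT, 8 HET and 22 KO cells. A cell held 1848 to 7932729 counts (median 1312950), and 20 cells, all WT, held fewer than 100000. Slc26a4 itself was still counted in KO cells. Its mean was 912 CPM in WT and 174.05 CPM in KO SC-like cells, and 1050 CPM in WT and 1222 CPM in KO RC-like cells, so it does not check the genotype label.

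In WT cells, 6 of the 10 genes reached a mean of 10 CPM in at least 1 named cell type, against 2 of the 11 other RGS genes and 11390 of the 47752 genes of the table. Each of the 6 had a cell type in which its mean was highest: Rgs5 and Rgs3 in SC-like, Rgs4 in MC-like, Rgs6 in RC-like, and Rgs14 and Rgs12 in IMC-like cells. Rgs2, Rgs10, Rgs16 and Rgs17 stayed below 10 CPM in all 4 named types. On the length-corrected TPM scale, which allows levels of different genes to be compared, Rgs5 led the 10 genes in WT SC-like cells with a mean of 1405 TPM, ahead of Rgs3 with 113.2 TPM, and Rgs12 followed with 13.6 TPM. The means of Rgs10 and Rgs14, 13.5 and 13.2 TPM, came wholly or almost wholly from 1 cell each. Rgs4 led in MC-like cells with 372 TPM, Rgs14 in IMC-like cells with 92.3 TPM, and Rgs6 in RC-like cells with 25.9 TPM.

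**Figure D1:**
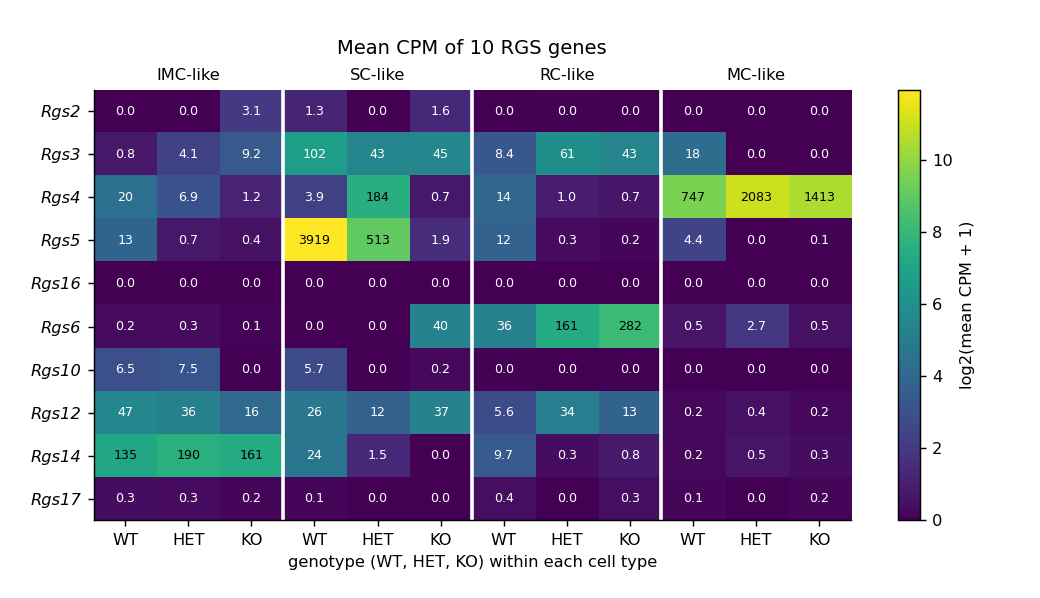
Mean CPM of the 10 RGS genes (rows) by cell type and genotype (columns). Color is log2(mean CPM + 1) and the number in each field is the mean CPM. Rgs5 stands out in WT SC-like cells (3919 CPM) and Rgs4 in MC-like cells of all genotypes (747 to 2083 CPM).

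Rgs5, an R4 regulator of Gi and Gq signals, had a mean of 3919 CPM in the 23 WT SC-like cells. Single cells spanned 0 to 22910 CPM with a median of 1261 CPM, 20 of the 23 cells held 10 or more counts, and session means spanned 0 to 15289 CPM. Rgs5 was thus present in most WT SC-like cells at very uneven levels. The summed counts came to 158737 (exact 95% Poisson interval 157957 to 159520), and here and below such intervals cover counting error only. The means in the other WT types were 13.4 CPM in IMC-like, 12.3 CPM in RC-like and 4.37 CPM in MC-like cells. SC-like cells lay above the next type by a log2 difference of 8.09 (SD between run dates 2.14) and were highest in 4 of 4 run dates. The order of IMC-like and RC-like cells changed from run date to run date, so these neighbours do not differ beyond their spread. In IMC-like cells 73.2% of the summed Rgs5 CPM came from 1 cell at 540 CPM.

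Of the Rgs5 TPM in WT SC-like cells, 89.6% was assigned to the coding transcript of 4096 bases and 10.4% to one of 723 bases. Rgs5 lies on the plus strand at chr1:169655501-169695813 (GRCm38). Its neighbour Rgs4 lies on the minus strand at chr1:169741477-169747642, 45663 bases away, and was highest in another cell type. Across all cells, 50 held 10 or more counts of Rgs5 and 47 held 10 or more of Rgs4, and 10 held both, of which 3 were SC-like and 3 MC-like.

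Because these neighbours differed in the cell type that expressed them most, the 250 bases before the start site of each are shown 5′ to 3′ on the gene's own strand, from RefSeq (GRCm38.p6), which matched 9 of the 10 genes. The Rgs5 window is chr1:169655251-169655500 (plus strand) and the Rgs4 window is chr1:169747643-169747892 (minus strand). Capitals mark matches, on either strand, to the TATA box TATAAA, the inverted or forward CCAAT box, the GC box GGGCGG and the E-box CANNTG, and no base fell in more than 1 motif.
Rgs5: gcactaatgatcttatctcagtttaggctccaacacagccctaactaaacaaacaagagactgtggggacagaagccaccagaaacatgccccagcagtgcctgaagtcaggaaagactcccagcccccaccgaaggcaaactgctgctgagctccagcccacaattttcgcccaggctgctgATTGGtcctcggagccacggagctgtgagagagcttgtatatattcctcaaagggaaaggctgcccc
Rgs4: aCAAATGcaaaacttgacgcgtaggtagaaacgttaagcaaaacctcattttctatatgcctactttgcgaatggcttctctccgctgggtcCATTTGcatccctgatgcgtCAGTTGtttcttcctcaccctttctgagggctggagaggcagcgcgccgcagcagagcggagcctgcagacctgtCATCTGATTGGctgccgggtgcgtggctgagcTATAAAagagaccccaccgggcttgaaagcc
Both windows hold CCAAT on the opposite strand, at position -67 from the start site in Rgs5 and at -57 in Rgs4. Rgs4 also holds the letters TATAAA at -31 and 4 E-boxes, at -249, -158, -138 and -63, and the last of these abuts its CCAAT box. The Rgs5 window lacks these exact patterns, but it holds tatatatt near its 3′ end. Other spellings of the TATA box were not searched. Neither window holds the GC box. Among 32851 promoters of the same length, 33.8% held the CCAAT box, 12.4% the TATA box, 66.2% an E-box and 32.7% a GC box. The GC content was 53.6% in both. These matches describe the letters and say nothing of which factor binds.

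Rgs4, an R4 gene known from brain and heart, had a mean of 747 CPM in the 14 WT MC-like cells. The lowest was at 0, the median at 688 CPM and the highest at 2499 CPM, and 12 cells lay at or above 374 CPM. The other two, at 0 and 1.47 CPM, were both of run date 2. MC-like cells lay above IMC-like cells, the next type at 19.7 CPM, by a log2 difference of 5.17 (SD between run dates 2.89) and were highest in 3 of the 3 run dates with WT MC-like cells. Rgs4 was a gene of MC-like cells in each run date. In RC-like and SC-like cells its means were 14.2 and 3.85 CPM. In MC-like cells 96.2% of its TPM was assigned to its coding transcript of 2941 bases.

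Rgs3, an R4 gene with long and short isoforms, was highest in WT SC-like cells, with a mean of 101.8 CPM. It ranged from 0 to 541 CPM and 12 of the 23 cells were at 0. The highest value was 1 count in a cell of 1848 counts, and the next was 450 CPM from 1003 counts. The means in MC-like and RC-like cells were 18.2 and 8.36 CPM, and the log2 difference from the next type was 2.42 (SD between run dates 0.69, highest in 4 of 4 run dates). Rgs3 was therefore an SC-like gene of only part of the cells. Of its TPM in these cells 61.6% fell on a 662-base transcript that the annotation calls processed and not coding. Rgs2, an R4 gene that acts mainly on Gq, did not exceed a mean of 1.33 CPM in any named WT type. Rgs16, also of the R4 family, had no count in any named type of any genotype. In WT IMC-like cells, 0 of 55 cells held an Rgs16 count, which allows up to 6.49% of cells with a count (exact binomial interval, which takes cells as independent and says nothing of cells whose RNA was missed).

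Rgs6, the R7 gene of the list, was highest in RC-like cells, with a WT mean of 35.8 CPM. Of the 16 cells 9 were at 0 and 2 reached 100 CPM. The other means were 0.24 CPM in IMC-like, 0.014 CPM in SC-like and 0.54 CPM in MC-like cells, so it passed 10 CPM in RC-like cells alone among the named WT types. The log2 difference from the next type was 4.58 (SD between run dates 2.79, highest in 3 of 4 run dates, the exception being a run date with 1 RC-like cell). Gnb5, the beta subunit that R7 proteins bind, had means between 46.1 and 62.9 CPM in all 4 types.

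Rgs14, an R12 scaffold that binds Gi subunits and Ras-family GTPases, was highest in IMC-like cells. In the 55 WT cells it had a mean of 135.3 CPM, with 0 as the lowest, 0.78 as the median and 1108.3 CPM as the highest value, and 27 cells were at 0. Rgs14 counts in these cells thus came from about as many cells as lacked them. IMC-like cells were highest in 4 of 4 run dates, with a log2 difference from the next type of 2.43 (SD 2.06). That next type, SC-like cells at 24.2 CPM, owed nearly all of its mean to 1 cell at 541 CPM, and RC-like cells were at 9.73 CPM. The Rgs14 coding transcript of 2356 bases held 94.9% of the TPM in IMC-like cells. Rgs12, the other large R12 scaffold, had means of 47.2 CPM in IMC-like and 25.9 CPM in SC-like cells, a log2 difference of 0.84 that is below the SD between run dates of 1.11. In IMC-like cells 70.7% of its TPM was assigned to a retained-intron transcript of 2951 bases. Rgs10, a small R12 protein, was counted in 1 of 55 IMC-like and 1 of 23 SC-like WT cells, at 355 and 131.1 CPM. Rgs17, of the RZ family, did not exceed a mean of 0.36 CPM in any named WT type.

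The genes whose log2(CPM + 1) rose and fell most closely with each of the 6 across all cells are given as a description, since these cells share libraries, depth and cell type. Among 10162 genes with a mean of at least 10 CPM, Rgs5 was most like Wfdc18 (Pearson r = 0.70), Nov (0.60), Mybpc2 (0.55), Anxa1 (0.54) and Cldn6 (0.53). Rgs4 was most like Atp13a5 (0.66), Rspo3 (0.62), Stac (0.60), Tmem45b (0.59) and Rasgef1c (0.58). Rgs6 was most like Frzb (0.58), Epyc (0.55), Crhr1, Igfbp5 and Crb2 (0.54 each), and Rgs14 was most like Car8 (0.56), Gpr37 (0.55), Hpse (0.54), Phlda1 (0.53) and Olfml1 (0.52). The genes most like Rgs3 were Cldn6 (0.40), Capg (0.37), Cdon (0.37), S100a11 (0.34) and Masp1 (0.34). No gene came close for Rgs12, the nearest being Birc5 (0.29), Apex2 (0.26), Ddx17 (0.26), Alms1 (0.26) and Spc24 (0.25).

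Pericyte RNA was measured beside Rgs5 because of its known place in these cells. In WT SC-like cells the sum of 9 pericyte markers had a median of 0.74 CPM (0 to 292.1 CPM), and Kcnj8, Higd1b, Ndufa4l2 and Vtn were at 0 in all 23 cells. In KO SC-like cells the sum had a median of 2.05 CPM (0 to 240.5 CPM). Taken singly, 2 of the 9 were past a log2 ratio of 1 between KO and WT SC-like cells and 0 were past -1. These 2 were Pdgfrb (mean 0.10 CPM in WT, 16.4 CPM in KO) and Notch3 (0.061 and 1.41 CPM). The 5 smooth muscle markers together stayed at or below 0.75 CPM in SC-like cells of every genotype. Of 18 SC-like cells with at least 100 CPM of Rgs5, 1 also had at least 100 CPM of the pericyte markers. Over all cells, 27 had at least 100 CPM of Rgs5 and 54 at least 100 CPM of the pericyte markers, and 2 had both. High Rgs5 and high sums of these markers were thus mostly in different cells. Many of the cells with high sums were IMC-like, up to 2908 CPM in a KO cell, so the sum does not single out pericytes here.

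Between the genotypes, Rgs5 set the list. In the 9 KO SC-like cells 7 were at 0 and the others were at 7.74 and 8.91 CPM, with 7 counts in all (exact 95% Poisson interval 2.81 to 14.4). The 2 HET cells were at 4.28 and 1022 CPM. Of the 23 WT cells 20 lay above the highest KO cell, and the other three were at 0, 0 and 6.005 CPM. The mean was 3919 CPM in WT, 513 CPM in HET and 1.85 CPM in KO cells, a log2 ratio of -10.43 between KO and WT. Pendrin cells mix SC-like and RC-like cells in unequal shares, 23 SC-like of 39 in WT, 2 of 8 in HET and 9 of 22 in KO. In all pendrin cells the means were 2317 CPM in WT, 128.4 CPM in HET and 0.86 CPM in KO cells. The ratio of KO to WT was -10.28, the lowest of the 10367 genes tested, and the next genes were P4ha3 at -7.01, Spock1 at -6.87 and Gstm1 at -6.58. HET lay below WT at -4.16, against -2.93 in SC-like cells alone, and KO below HET at -6.12. The ratios among the 3 genotypes share their groups and are no independent evidence of one another.

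**Figure D2:**
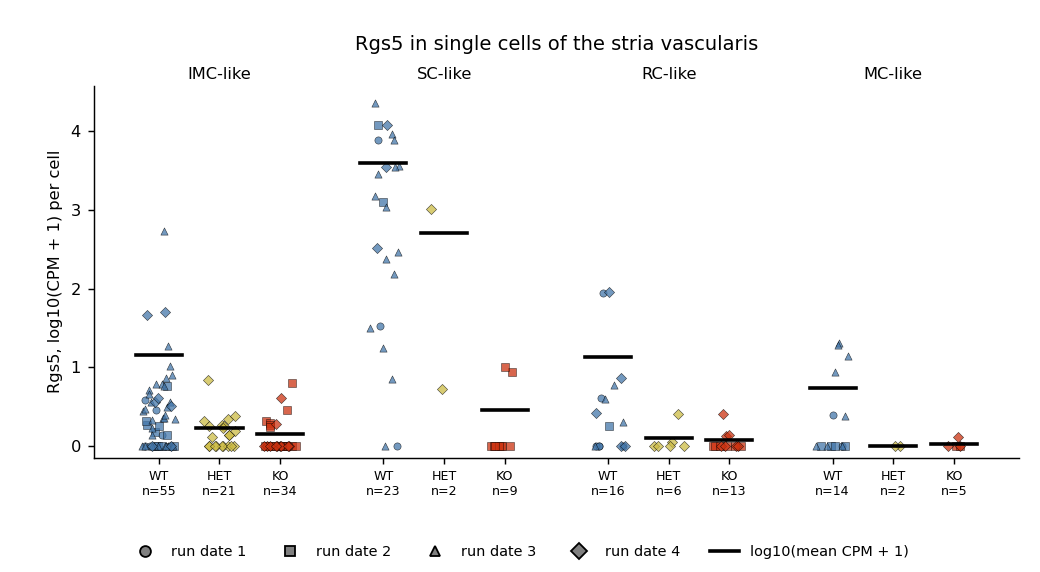
Rgs5 in single cells, as log10(CPM + 1), by cell type and genotype, with 1 symbol per cell, shapes for the 4 run dates and a line at log10 of the mean CPM plus 1. Of 23 WT SC-like cells 20 lie above the highest of 9 KO SC-like cells at 8.91 CPM.

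Run date and genotype overlapped only in part, since all 9 KO SC-like cells came from run date 2, which held 2 WT SC-like cells, at 1261 and 12085 CPM. The WT mean was 2602 CPM (n = 3 cells) in run date 1, 6673 CPM (n = 2) in run date 2, 3535 CPM (n = 15) in run date 3 and 5324 CPM (n = 3) in run date 4. In run date 1 that mean came from 1 cell at 7775 CPM, the others being at 0 and 31.9 CPM. Within run date 2 the ratio of KO to WT was -11.19 in SC-like cells and -11.04 in pendrin cells. Within run date 4 the pendrin ratio of -10.57 set 7 KO RC-like cells against 3 SC-like and 5 RC-like WT cells, and RC-like cells alone gave -3.96. On the only picking day with SC-like cells of both genotypes, 1 WT cell was at 1261 CPM and 1 KO cell at 0. When each cell was thinned to 100000 counts, Rgs5 was present in 20 of 21 WT and 1 of 9 KO SC-like cells, against 21 of 23 and 2 of 9 unthinned. In a type with little of the gene, WT MC-like cells, 6 of 14 held at least 1 count unthinned. Median depth was 1820555 counts in WT and 561315 in KO SC-like cells.

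The markers of the cell type also moved with Rgs5. Of 11 SC markers 7 were past a log2 ratio of -1 in KO SC-like cells and 1 was past 1, with a median ratio of -1.23. Wfdc18, at -5.05, Krt7, at -2.72, and Anxa1, at -2.41, were the lowest, and none of the 11 was at 0. Summed, they had a median of 30216 CPM in WT (6884 to 112601), 19665 and 82615 CPM in the 2 HET cells, and 4927 CPM in KO cells (1936 to 30319). These sums overlapped little, but they lean on Wfdc18, which had the highest WT mean of the 11 (20200 CPM, against 610 CPM in KO cells). Wfdc18 was also the gene most like Rgs5 across cells. Cldn7 (-0.42), Epcam (-0.84) and St14 (0.11) did not differ by 2-fold. Of the KO cells 5 lay below the lowest WT cell, and all but 1 at or below 10356 CPM. The 3 WT cells nearest to them, at 6884, 9327 and 11610 CPM of the markers, had Rgs5 at 0, 30.8 and 31.9 CPM. The next 9 WT cells, at 17060 to 30216 CPM, had Rgs5 between 0 and 12085 CPM, and the 1 KO cell beside them, at 30319 CPM, had none. One KO cell of the cluster led by Slc4a1 had 71576 CPM of the SC markers and 0 of its 2061998 counts in Rgs5. Its Anxa1 was at 0.97 CPM, against SC-like means of 5714 CPM in WT and 1074 CPM in KO cells, so its type is unclear. The summed markers of other types were higher in KO than in WT SC-like cells, with medians of 9915 against 5173 CPM for 14 MC markers and 5899 against 3259 CPM for 10 RC markers. Taken singly, the RC markers went both ways, with 2 past -1, 2 past 1 and a median ratio of -0.07. Clu, with means of 4728 CPM in WT and 6024 CPM in KO cells, was the largest part of their sum. The part of these marker differences in the Rgs5 ratio was not tested.

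**Figure D3:**
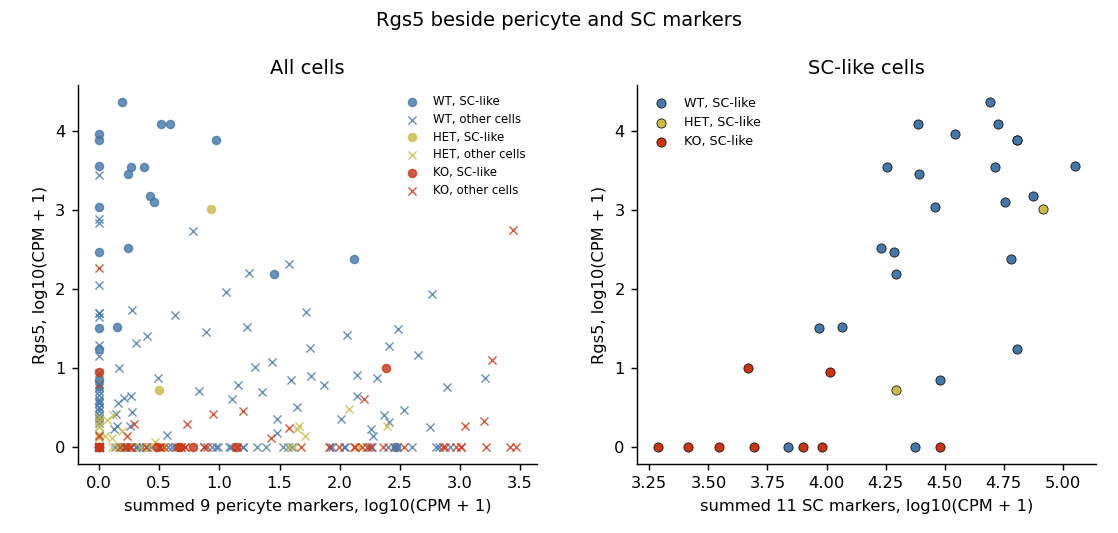
Rgs5 against 9 summed pericyte markers in all cells (left) and against 11 summed SC markers in SC-like cells (right), all as log10(CPM + 1), with 1 symbol per cell. KO SC-like cells lie at or below 8.91 CPM of Rgs5 and mostly at the low end of the SC markers, where the 3 nearest WT cells lie at 0, 30.8 and 31.9 CPM.

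Rgs5 was also lower in KO cells of the types in which it was low to start with. In RC-like cells the means were 12.3 CPM in WT (0 to 90.3, median 0.91), 0.27 CPM in HET and 0.17 CPM in KO cells, a ratio of -3.50. In IMC-like cells they were 13.4, 0.68 and 0.43 CPM, a ratio of -3.33, and 7 of 55 WT cells lay above the highest of the 34 KO cells. These ratios rest on few cells. Within run date 2 they were -0.85 and -0.32, and within run date 4 they were -3.96 and -3.52. By picking day shared by WT and KO cells, the IMC-like ratio was 0.68, -0.57, -0.84 and -0.86.

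Of the 5 genes of the list that passed the level filter in pendrin cells, 3 were called, Rgs5 and Rgs14 lower in KO cells and Rgs6 higher. The Rgs5 call was fixed beforehand, since the Rgs5 ratio in these cells chose the list. SC-like and RC-like cells make up the pendrin cells, so their counts below are not free of that choice. These counts therefore cannot be weighed against the shares of all genes. The Rgs14 mean in WT pendrin cells, 18.3 CPM, came largely from a single cell at 541 CPM. Among all 10367 genes tested, 37.7% were called in either direction. The median ratio of the 5 genes was -0.52, and that of all genes was -0.13. In SC-like cells 4 of 5 were called, Rgs3, Rgs5 and Rgs14 lower and Rgs6 higher, against 55.5% of 10010 genes. In RC-like cells 5 of 5 were called, Rgs4 and Rgs5 lower and Rgs3, Rgs6 and Rgs12 higher, against 51.1% of 10012 genes. Differences of 2-fold size were thus frequent among all genes with so few cells.

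**Figure D4:**
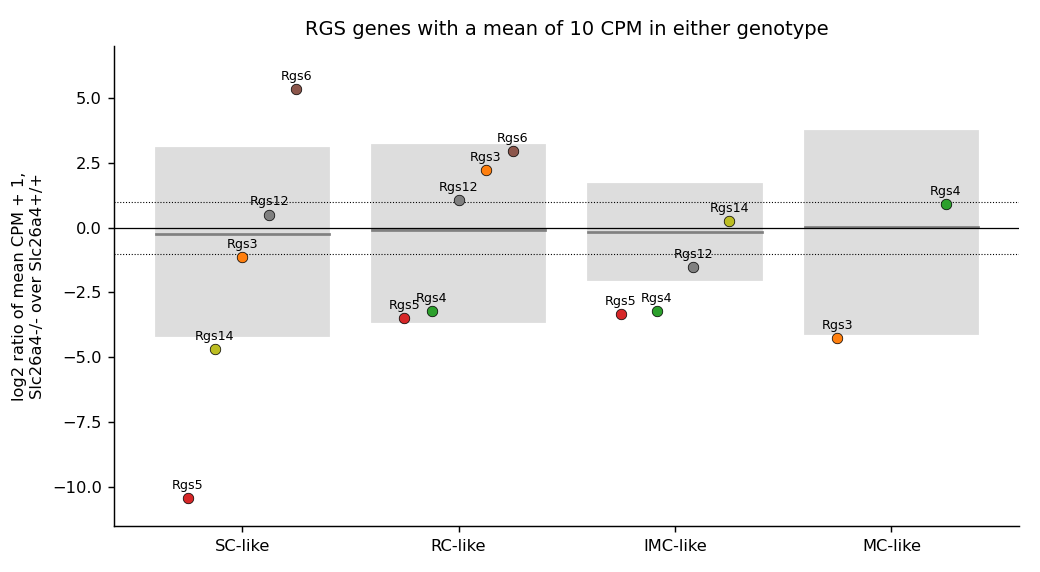
Log2 ratio of mean CPM + 1 between KO and WT cells for the RGS genes with a mean of at least 10 CPM in either genotype, by cell type. Gray boxes span the 5th to the 95th percentile of all genes tested, gray lines are their medians, and dotted lines mark the 2-fold calls. Rgs5, whose ratio in pendrin cells chose the list, lies furthest outside its box, at -10.43 in SC-like cells.

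Rgs6 was higher in KO than in WT RC-like cells. The 16 WT cells had a median of 0 and the next to highest at 205.7 CPM, the 6 HET cells ranged from 0 to 740 CPM with a median of 70.6 CPM, and the 13 KO cells ranged from 0 to 889 CPM with a median of 170.97 CPM. The groups overlapped, since 6 of the 13 KO cells lay above the highest WT cell and 7 within the WT range. The means were 35.8, 160.8 and 282.05 CPM, a log2 ratio of 2.94 between KO and WT, 2.14 between HET and WT, and 0.81 between KO and HET. Rgs6 was present in 4 of 15 WT, 4 of 6 HET and 11 of 13 KO cells after thinning to 100000 counts, and in 7 of 16, 4 of 6 and 12 of 13 without it. Depth differed, with medians of 891473 counts in WT, 3123761 in HET and 2140195 in KO cells.

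The KO mean was the higher in both run dates with KO RC-like cells. The Rgs6 mean was 373 CPM in 6 KO cells of run date 2, which held a single WT cell at 0, and 204.1 CPM in 7 KO cells against 51.6 CPM in 5 WT cells of run date 4, a ratio of 1.96. In run date 4 the mean of the HET cells lay between, at 160.8 CPM. The summed RC markers had medians of 38958 CPM in WT, 58851 CPM in HET and 38813 CPM in KO cells. Of the Rgs6 TPM in RC-like cells, a coding transcript of 2141 bases held 50.96% in WT and 23.3% in KO cells. A coding one of 3069 bases held 17.1% in WT and 0.29% in KO cells, and one of 663 bases 16.4% and 29.1%.

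Rgs6 was also counted in KO SC-like cells. Of the 9 cells 4 were at 0 and the others were at 1.21, 3.87, 6.35, 64.6 and 284.5 CPM. In the 23 WT cells there was 1 count in all, and in the 2 HET cells there was none. The means were 40.1 CPM in KO and 0.014 CPM in WT cells, a ratio of 5.34, and 78.9% of the KO sum came from 1 cell. Rgs6 marked RC-like cells in WT, and the summed RC markers had medians of 5899 CPM in these KO and 3259 CPM in the WT SC-like cells. Of the 10 RC markers taken singly, 2 were lower and 2 higher by over 2-fold in KO cells, with a median ratio of -0.07. Their part in the result was not tested.

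Rgs4 kept its place in MC-like cells in all genotypes. The 5 KO cells were at 962, 1295, 1580, 1604 and 1623 CPM, and the 2 HET cells at 2052 and 2114 CPM. Of the 14 WT cells 11 were below the lowest KO cell and 3 lay within or above the KO range. The mean was 747 CPM in WT, 2083 CPM in HET and 1413 CPM in KO cells, so that the ratio of KO to WT was 0.92, which is not a call, and that of HET to WT was 1.48. Within run date 2, 2 KO cells had a mean of 1271 CPM and 4 WT cells one of 223.4 CPM, and run date 4 held no WT MC-like cell. Of the 2 genes of the list that passed the filter in MC-like cells Rgs3 was called, lower in KO, against 52.5% of 9048 genes in either direction. Rgs3 passed only through its WT mean, so its call could only be lower.

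**Figure D5:**
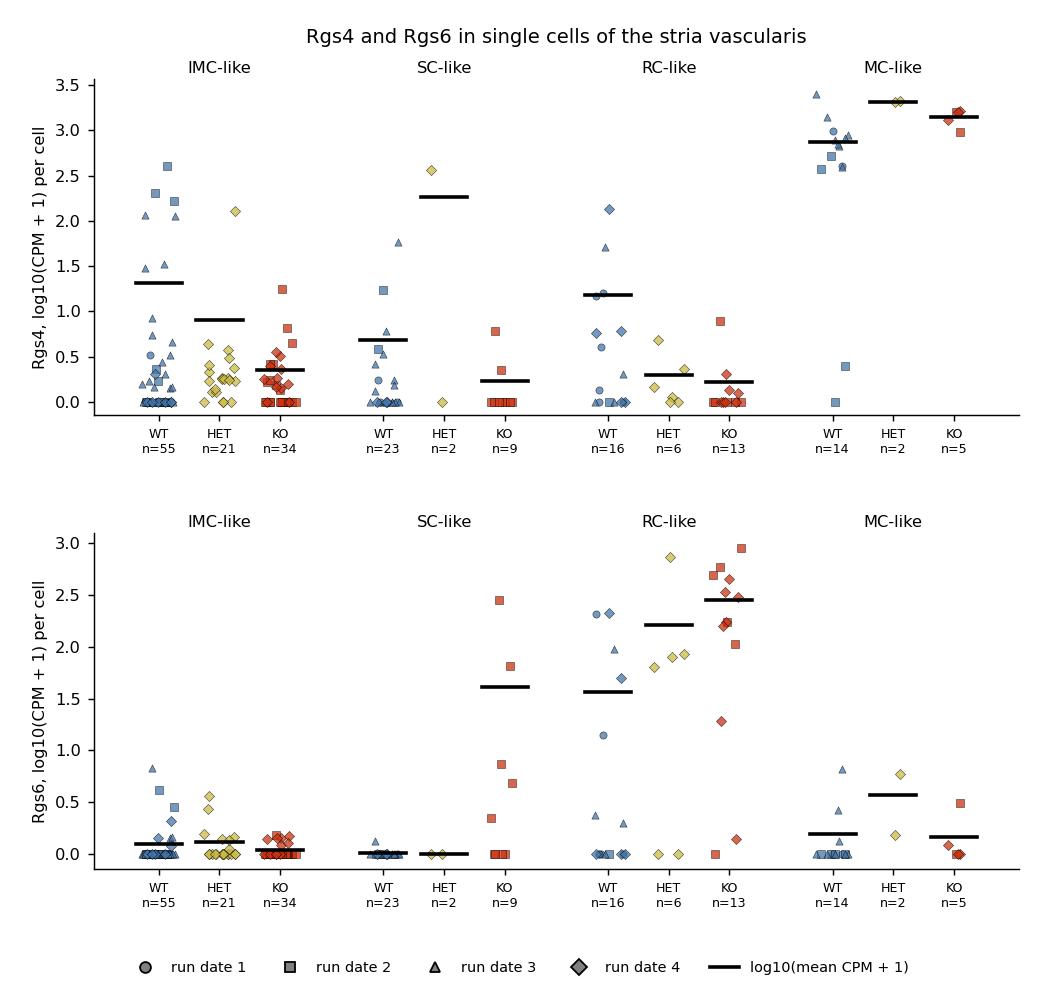
Rgs4 (top) and Rgs6 (bottom) in single cells, as log10(CPM + 1), by cell type and genotype, with 1 symbol per cell, shapes for run dates and a line at log10 of the mean CPM plus 1. Rgs4 is high in MC-like cells of all genotypes, and Rgs6 in RC-like cells is higher in KO (mean 282.05 CPM) than in WT (35.8 CPM).

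Outside MC-like cells Rgs4 was low and uneven. In RC-like cells the means were 14.2 CPM in WT, 0.96 CPM in HET and 0.65 CPM in KO cells, a ratio of -3.20 between KO and WT that was 1.10 within run date 2 and -4.60 within run date 4. In IMC-like cells the means were 19.7, 6.93 and 1.22 CPM, a ratio of -3.22 that was -5.05 within run date 2 and 0.77 within run date 4. By picking day shared by WT and KO cells, the IMC-like ratio was 0.90, -6.93, 0.73 and -4.69. These values within run dates rest on little. Run date 2 held 1 WT RC-like cell, at 0, and the IMC-like means of run date 4 were 0.15 CPM in WT and 0.96 CPM in KO cells. In SC-like cells 1 of the 2 HET cells was at 367 CPM, while the WT and KO means were 3.85 and 0.70 CPM.

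The Rgs3 ratio differed in sign between types, a difference that was not tested. In SC-like cells the mean was 101.8 CPM in WT and 45.3 CPM in KO cells, a ratio of -1.15, and the 2 HET cells were at 31.97 and 53.5 CPM. One KO cell was at 406 CPM, the next at 1.21 CPM and the other 7 at 0, and without that cell the KO mean was 0.15 CPM. In RC-like cells the means were 8.36 CPM in WT, 60.99 CPM in HET and 42.8 CPM in KO cells, a ratio of 2.22. That ratio was 6.27 within run date 2 and -0.64 within run date 4. Run date 2 held 1 WT RC-like cell, at 0, and in run date 4 the WT mean of 22.4 CPM came almost wholly from 1 cell at 111.8 CPM. In MC-like cells 3 of 14 WT cells held Rgs3, with a mean of 18.2 CPM, and none of the 5 KO or 2 HET cells did. A count of 0 over the KO cells allows up to 0.253 CPM (3 counts, counting error only), but 11 of the 14 WT cells were at 0 as well, so the ratio rests on 3 WT cells.

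Rgs14 did not differ by 2-fold in IMC-like cells. Its means were 135.3 CPM in WT, 190.3 CPM in HET and 161.5 CPM in KO cells, with medians of 0.78, 198.1 and 115.6 CPM. The ranges of 0 to 1108.3 CPM in WT, 0 to 775 CPM in HET and 0 to 550 CPM in KO cells overlapped. Rgs14 was present in 26 of 55 WT, 15 of 21 HET and 24 of 34 KO cells after thinning, and in 28, 20 and 25 of them without it. The ratio of KO to WT was 0.25, with 1.85 within run date 2 and -0.28 within run date 4. By picking day shared by WT and KO cells, with 1 to 4 cells of each, it was -0.79, 0, 5.55 and 6.86. The WT mean itself ran from 32.6 CPM in run date 2 to 301.4 CPM in run date 4, a wider spread than that between genotypes. In SC-like cells the call rests on almost no counts. Rgs14 had 16 counts over 23 WT cells and 0 over 9 KO cells, and 97.04% of the WT CPM sum came from 1 count in a cell of 1848 counts. The SC-like ratio of -4.66 was -0.84 over cells with at least 100000 counts.

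Rgs12 had means of 47.2 CPM in WT, 35.7 CPM in HET and 15.7 CPM in KO IMC-like cells, a ratio of -1.53 between KO and WT. Of the 55 WT cells 10 lay above the highest KO cell at 72.97 CPM, while 29 WT and 15 KO cells were at 0. The ratio was 0.02 within run date 2 and -1.61 within run date 4. On the 4 picking days with IMC-like cells of both genotypes, with 1 to 4 cells of each, it was 0.20, 0.28, 4.09 and 0.03, so KO was not lower on any of them. In RC-like cells the ratio of 1.07 came from 1 KO cell at 163.5 CPM, 97.7% of the KO sum, and in SC-like cells 1 KO cell at 307 CPM held 92.1% of the KO sum. In IMC-like cells 3 of the 4 genes that passed the filter were called, Rgs4, Rgs5 and Rgs12, all lower, against 30.1% of 9585 genes in either direction. Rgs4 and Rgs5 passed only through their WT means, so their calls could only be lower. None of the 3 ratios passed -1 in run date 2 and run date 4 alike. Rgs2 was at 0.019 CPM in WT and 3.06 CPM in KO IMC-like cells, below the filter, with 3 of 34 KO cells holding 10 or more counts. Rgs10 was counted in 2 of 21 HET and 0 of 34 KO IMC-like cells and Rgs17 stayed at or below 0.36 CPM in the named types of every genotype.

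Of the other 11 RGS genes, Rgs11, a further R7 gene, reached 163.7 CPM in MC-like, 87.1 CPM in RC-like, 78.8 CPM in SC-like and 40.0 CPM in IMC-like WT cells, and Rgs19, of the RZ family, reached 29.1 CPM in IMC-like cells. In pendrin cells Rgs11 had a KO to WT ratio of -0.64. In IMC-like cells Rgs11 and Rgs19 had ratios of -1.85 and -1.36. The remaining 9 did not reach 10 CPM in a named WT type.

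Of the 47 genes of G-protein signaling, 28 reached 10 CPM in a named WT type. By mean TPM over the 4 types the leading subunits were Gnai2 (252.1 TPM) and Gnao1 (86.3 TPM) of the Gi group, Gna11 (39.3 TPM) and Gna14 (30.97 TPM) of the Gq group, Gnas (1716 TPM) and Gna13 (51.2 TPM) of the others, and Gnb2 (285.8 TPM) and Gnb1 (241.99 TPM) of the beta subunits. Gpsm1 (95.5 TPM) and Gpsm2 (8.14 TPM) led the GoLoco proteins, which hold Gi subunits in the GDP form. Among the 3 receptor kinases with a TPM value, Grk4 (20.2 TPM) and Grk6 (3.96 TPM) led, while Adrbk1 and Adrbk2 had none and were not ranked. Ednrb (113.4 TPM) and P2ry2 (84.6 TPM) led the receptors. Ednrb, the endothelin receptor of the melanocyte lineage, had 1201 CPM in WT IMC-like cells, while RC-like cells, the next type, had 6.05 CPM.

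In pendrin cells 24 of the 47 passed the filter, 5 were called lower in KO cells and 3 higher, against 37.7% of all genes called in either direction. Their median ratio was -0.07. Gnai2 was at -1.15, Gnb4 at -3.05, Grk4 at -1.02, S1pr1 at -3.52 and F2r at -1.90, while Gna13 was at 2.00, Gpsm2 at 1.71 and Adrbk1 at 2.67. Gnb5, the partner of Rgs6, was at -0.31. In IMC-like cells 22 passed, 7 were called lower and 4 higher, against 30.1% of all genes in either direction, with a median of -0.20. The lower ones were Gnai1 (-3.63), Gnai3 (-1.12), Gnao1 (-2.21), Gnal (-1.39), Gnb5 (-1.01), Gpsm1 (-1.65) and Grk6 (-1.75), and the higher ones were Gna12 (1.28), Adrbk1 (1.05), P2ry2 (3.69) and S1pr2 (1.69).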

How the data were processed

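Single cells were lysed and amplified with Smart-Seq2, which does not mark strand, so reads of overlapping genes on opposite strands cannot be told apart. Per the labels, the authors quantified reads with kallisto on GRCm38 (mm10) transcripts, with no version given in the sources used here. The deposited gene table holds estimated counts cut to whole numbers for 298 columns, of which 281 match a sample and 17 were not used here. The deposited per-cell tables hold estimated counts and TPM of 98492 transcripts, which were summed to genes by transcript name. CPM were computed from the gene table. Cells were clustered with Seurat 5.3.0 in R 4.3.3 (10 principal components, resolution 0.8). Genes of the RGS list, the pathway lists and the study's named genes were left out. A cluster was named where 80% of its cells scored highest for 1 marker list. The authors' own cell type labels were not used here. Cells were picked singly and no doublet caller was run. No cell was removed, and a filter on genes and mitochondrial counts is among the alternatives.

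The genes, lists and rules were chosen with earlier results of these data known. Ratios used a pseudocount of 1 CPM, and a call needed a mean of 10 CPM in either genotype and a log2 ratio past 1. With 1 sample a genotype no test was made. All 10 genes are given for every named type. Of each pathway list the text names the 2 genes with the highest TPM and up to 3 with the largest ratio past 1 in pendrin or IMC-like cells, and for each expressed RGS gene the 5 most correlated genes. Thinning drew 100000 counts a cell and left out 20 WT cells. The ratio was also run on simulated counts with the same spread between cells for every gene, unlike these data, and no result here rests on that run. Depth and picking of cells limit low genes, and intervals cover counting error only. Analyses used Python 3.11.15, pandas 2.3.3 and scipy 1.17.1, with edgeR 4.0.16 for the TMM factors of 1 alternative.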

Additional observations from a re-analysis of the deposited data

Results flagged for a closer look

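Rgs3 and Rgs12 had ratios between KO and WT cells past 2-fold in opposite directions in different cell types. The difference between cell types was not tested, since each genotype is 1 sample. For Rgs3 the log2 ratio was -1.15 in SC-like cells and -4.26 in MC-like cells, and 2.22 in RC-like cells. In SC-like cells 1 KO cell held 99.7% of the KO sum, and in RC-like cells 13 of 16 WT cells were at 0. For Rgs12 the log2 ratio was -1.53 in IMC-like cells and 1.07 in RC-like cells, and the latter rests on 1 KO cell that held 97.7% of the KO sum.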

How the results depend on the processing

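Of 92 values of the 6 main results under other settings, 11 moved by more than the spread or, for counts of genes, by over 1.5 times. The Rgs5 and Rgs4 differences kept their sign. The 2 genes called lower in pendrin cells became 1 with means over sessions, in cells with 2500 genes and under 3% mitochondrial counts, in cells with 100000 counts, and within run date 2. They became 4 with a filter at 1 CPM or none and 5 within run date 4, and ranged from 1 (without run date 3) to 3 (without run date 2). The 3 calls in IMC-like cells became 6 with a filter at 1 CPM or none. The Rgs5 ratio in pendrin cells ranged from -10.66 to -9.76 when a session or run date was left out, and was -3.50 in RC-like cells only, which leave out the SC-like cells. The SC-like placement of Rgs5 (8.09) was 4.61 with types by the highest marker score and 7.59 to 8.28 with a session or run date left out. Among the single ratios 6 values turned. These were Rgs12 in RC-like cells (-1.95 without the highest cell of each group, -0.85 within run date 2), Rgs12 in IMC-like cells (0.021, run date 2), Rgs4 in RC-like cells (1.10, run date 2), Rgs3 in RC-like cells (-0.64, run date 4) and Rgs4 in IMC-like cells (0.77, run date 4). Left-out sessions or run dates gave Rgs12 in RC-like cells -2.72 to 1.85 (-2.14 without run date 4) and Rgs3 in SC-like cells -6.68 to 0.0023. Rgs14 in IMC-like cells was -6.97 with 4 principal components. The cause was not tested. The settings for single ratios, the split into SC-like and RC-like cells, the single picking day and the removal of the 2 highest WT cells were chosen after seeing the data.

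With resolution 0.4 or 4 principal components SC-like cells joined Crhbp-led cells in an unnamed cluster, and with 20 components IMC-like clusters stayed unnamed, so results on these types have no value there. No paired analysis was possible because no replicate number is shared between genotypes and no result comes from a test. WT and KO cells of a type did share some picking days. Values on these days are given without a test for Rgs5 in SC-like cells and for Rgs4, Rgs5, Rgs12 and Rgs14 in IMC-like cells. Few HET cells, 5 KO MC-like cells and uneven depth limit what low genes can show.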

Other observations

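The cluster led by Crhbp, which no marker list named, had Rgs4 in all genotypes, with means of 159.4 CPM in 11 WT, 125.01 CPM in 4 HET and 167.9 CPM in 2 KO cells. In WT, 74.3% of that sum came from 1 cell at 1303 CPM. Of the 2 KO cells of that cluster 1 was at 179.5 CPM of Rgs5, with 824 counts, and it was in run date 1.

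Outside the SC-like cluster, 9 cells had at least 100 CPM of Rgs5, and 6 of them were in the cluster led by Slc4a1 and blood-cell genes. All but 1 of these were WT cells of run date 1 at 2763, 773, 676, 202.4 and 156.5 CPM. The first held 28 Rgs5 counts among 10134. The exception, a KO cell at 558 CPM, also had 2766 CPM of the pericyte markers.

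Rgs12 and Rgs14, R12 genes with their highest WT mean in IMC-like cells, reached 10 counts in 71 and 72 cells and shared 25 of these. For Rgs12 that placement did not exceed the spread between run dates. Whether the overlap differs from that of unrelated genes was not tested.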
